A study of Mus musculus with 3 samples.

Results

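Genes of protein folding and secretion in the endoplasmic reticulum (ER) were followed in single-cell RNA libraries of the mouse knee synovium and infrapatellar fat pad, in a control and after destabilisation of the medial meniscus (DMM), a surgical model of post-traumatic osteoarthritis. The members were 38 genes named by symbol, chosen for their place in the secretory pathway, of 32285 genes in the files, and all 38 were found in all 3 libraries. They comprised 11 chaperones and their partners, 4 protein disulfide isomerases, 3 collagen folding factors, 7 regulators and effectors of the ER stress response, 8 subunits of the translocation, translocon-associated and signal peptidase complexes and 5 genes of transport between the ER and the Golgi. All mice were wild type per the labels. The control mice were 2 months old, and the operated mice had DMM at 2 months of age and were harvested 1 week or 2 months later, so that the 2-month group was also older than the control. Each group was 1 library, made from the pooled tissue of 5 to 10 mice that was treated with 0.25% trypsin (30 min), then with type I collagenase at 300 U/mL (30 min), and sorted for live cells. Nothing in the labels tells the sex of the mice or whether the controls were sham operated. As a group was a single library, no test of differences could be run: intervals below are 95% intervals for counting error only, and the spread between mice is not measured.

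The ER is where secreted and membrane proteins enter the secretory pathway. The Sec61 channel passes the growing chain through the membrane, signal peptidase cuts off its leader, chaperones and disulfide isomerases fold it, and coat protein complex II carries it to the Golgi, from which KDEL receptors return escaped ER residents. Collagen needs added factors: Serpinh1 binds the procollagen triple helix, Fkbp10 and Ppib are prolyl isomerases, P4hb is both a disulfide isomerase and a subunit of prolyl hydroxylase, and Mia3 loads procollagen at ER exit sites. When unfolded protein builds up, the sensors Ire1, Perk and Atf6 act through spliced Xbp1, Atf4 and cleaved Atf6 to raise chaperones such as Hspa5, the ER Hsp70 known as BiP, and, under lasting stress, Ddit3, a factor tied to cell death. Creb3l1 and Creb3l2 are ER-bound factors related to Atf6 that are known for roles in matrix-secreting cells. The 3′ tag counts measured transcript levels and not the splicing of Xbp1, the translation of Atf4 or the cleavage of Atf6, Creb3l1 or Creb3l2.

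The promoters of the members are shown first, because the ER stress factors act through a few known DNA elements and the members with and without them can then be followed. RefSeq promoters on GRCm38.p6, 250 bases before to 50 bases after a gene's start, were given for 31 of the 38 members. Hyou1, Manf, Fkbp10, Atf6, Creb3l1, Sec61a1 and Kdelr2 had no entry. Both strands were searched for the ER stress response element ERSE (CCAAT, 9 bases of any kind, then CCACG), for ERSE-II (ATTGG, 1 base, then CCACG), for the unfolded protein response element UPRE (TGACGTGG) and for a composite element of Atf4 and C/EBP factors (TGATG, 1 base, then AA). The complement of the UPRE holds CCACG, so that these motifs share letters, but no 2 matches in the members overlapped. The 250 bases upstream of Hspa5 (chr2:34771840-34772089, plus strand) and of Kdelr3 (chr15:79516158-79516407, plus strand) are printed 5′ to 3′ along the gene, with the ERSE of the former and the UPRE of the latter in capitals.
Hspa5: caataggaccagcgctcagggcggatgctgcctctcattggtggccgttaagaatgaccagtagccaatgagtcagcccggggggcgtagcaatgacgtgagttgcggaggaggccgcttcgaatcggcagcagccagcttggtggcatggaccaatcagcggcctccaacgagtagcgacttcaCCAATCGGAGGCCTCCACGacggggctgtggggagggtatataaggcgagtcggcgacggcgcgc
Kdelr3: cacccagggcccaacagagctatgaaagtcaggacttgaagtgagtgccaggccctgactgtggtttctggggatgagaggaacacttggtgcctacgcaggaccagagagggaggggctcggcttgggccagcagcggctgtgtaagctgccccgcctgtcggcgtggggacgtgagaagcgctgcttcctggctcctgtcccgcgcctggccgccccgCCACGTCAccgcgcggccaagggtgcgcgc

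The ERSE was found in 7 of the 31 members (22.6%) against 39 of all 32851 promoters (0.119%). Besides Hspa5, whose match began 65 bases before the start, these were the chaperones Hsp90b1, Calr, Canx, Dnajc3 and Creld2 and the isomerase Pdia6, all of them ER residents. The matches are shown with 20 bases on each side, the ERSE in capitals and read along the gene, so that a match on the opposite strand opens with CGTGG. Hsp90b1 held an ERSE on each strand, at chr10:86705618-86705676 (-) and chr10:86705513-86705571 (-). The others lay at chr8:84847055-84847113 (-) for Calr, chr11:50325780-50325838 (-) for Canx, chr14:118937807-118937865 (+) for Dnajc3, chr15:88819500-88819558 (+) for Creld2 and chr12:17266471-17266529 (+) for Pdia6, with the strand of the gene in brackets.
Hsp90b1 plus: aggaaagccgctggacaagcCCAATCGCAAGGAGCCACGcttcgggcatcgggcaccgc
Hsp90b1 minus: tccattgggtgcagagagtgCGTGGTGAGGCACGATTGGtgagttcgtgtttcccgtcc
Calr: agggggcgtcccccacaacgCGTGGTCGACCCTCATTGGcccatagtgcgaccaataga
Canx: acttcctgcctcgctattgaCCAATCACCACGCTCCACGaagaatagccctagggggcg
Dnajc3: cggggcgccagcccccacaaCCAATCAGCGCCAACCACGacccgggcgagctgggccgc
Creld2: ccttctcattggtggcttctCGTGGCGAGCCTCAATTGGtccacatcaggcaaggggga
Pdia6: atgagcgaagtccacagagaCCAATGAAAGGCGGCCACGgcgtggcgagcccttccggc

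The ERSE-II was found in Herpud1 and Dnajb11, 6.45% of the 31 members, against 0.0365% of all promoters. The UPRE was found in 3 members (9.68%), all of them genes of ER to Golgi transport (Kdelr3, Sec23a and Sec24d), against 0.676% of all promoters. The composite element was found in 1 member, Herpud1, against 3.97% of all promoters. The windows of Herpud1 (chr8:94386357-94386407 (+)) and Sec24d (chr3:123267450-123267495 (+)) are shown with the ERSE-II and the UPRE in capitals, as examples beside the ERSE set. Only the Sec24d window was trimmed, at the start of the gene. A match of letters is a description and does not show that a factor bound there.
Herpud1: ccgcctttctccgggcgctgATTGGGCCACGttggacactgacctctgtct
Sec24d: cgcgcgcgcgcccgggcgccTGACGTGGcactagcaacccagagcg

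A barcode was kept as a cell if it had 500 or more genes and no more than 10% of its UMIs from mitochondrial genes. This left 8099 cells of the control library, 12316 of the 1-week library and 9782 of the 2-month library. The medians were 10871, 12919 and 13543 UMIs and 1.79%, 3.51% and 3.41% mitochondrial UMIs per cell. Pairs of libraries shared 28 to 33 cell barcodes, or 21 to 30 of those that passed. Cells were assigned by marker UMIs, and the classes could overlap. Fibroblasts (Pdgfra present, Ptprc and Cdh5 at 0) numbered 3781, 4748 and 5317. Among them, those with Clic5, a gene of the synovial lining, numbered 1650, 376 and 1786, and those with Pi16, a marker of progenitor-like fibroblasts, numbered 665, 406 and 1376. There were 1270, 1784 and 1157 endothelial cells (Cdh5 present, Ptprc at 0), 694, 711 and 423 mural cells, the pericytes and smooth muscle of vessels (Notch3 present, Pdgfra, Ptprc and Cdh5 at 0), and 1101, 1969 and 894 macrophages (C1qa at 3 UMIs or more). The gates fix the presence of their own genes, so the classes were checked on markers that no gate uses, as summed CPM (UMIs of the genes over all UMIs of the class, times 1000000). The 5 such fibroblast markers summed to between 20204 and 38628 CPM in fibroblasts and between 2074 and 11469 in the endothelial, mural and macrophage sums. The 5 endothelial markers summed to between 2742 and 3185 in endothelium, the 6 mural markers to between 10606 and 20324 in mural cells and the 5 macrophage markers to between 7691 and 10307 in macrophages. Cartilage markers in the fibroblast sums were 1.41, 761 and 40.1 CPM in the control, 1-week and 2-month libraries, and their part in the results was not tested.

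The 38 members together took a larger share of fibroblast transcripts at 1 week than in the control, with a value close to the control at 2 months. Their share of the fibroblast UMIs was 0.972% in the control, 1.39% in the 1-week library and 1.06% in the 2-month library, a ratio to the control of 1.43 (1.42 to 1.43) at 1 week and 1.09 (1.09 to 1.09) at 2 months. Per cell, the median share was 0.908% (quartiles 0.759% and 1.11%) in the control, 1.27% (1.06% and 1.55%) at 1 week and 1.02% (0.847% and 1.25%) at 2 months, so that the cells of the libraries overlapped. The 1-week ratio of the summed share was 1.26 in fibroblasts with Clic5, 1.3 in those with Pi16 and 1.4 in those with neither. Each was below the 1.43 of all fibroblasts, and the part of the mix of fibroblasts in that value was not tested. The largest ratio of the 6 classes was in mural cells, where the share was 0.527%, 1.03% and 0.651%, a ratio of 1.96 (1.94 to 1.99) at 1 week. In endothelium the share was 0.764%, 0.937% and 0.732%. Macrophages were the class in which the share was lower in both operated libraries, at 0.793%, 0.736% and 0.696%. The ratios were 0.928 (0.921 to 0.936) and 0.878 (0.869 to 0.886). At 1 week this rested on Hspa5, which fell from 1686 to 803 CPM, more than the 38 members fell together. The median log2 ratio over the members was positive there, so the lower share did not describe most of them.

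**Figure D1:**
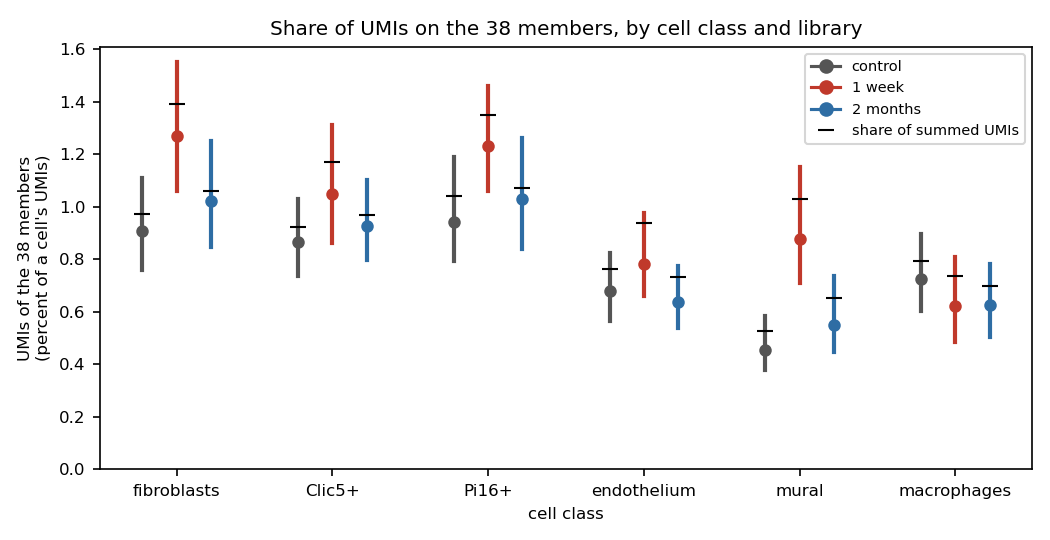
Share of UMIs on the 38 members in each cell class and library. Points are medians over cells, vertical lines run from the lower to the upper quartile of cells, and black dashes are the share of the summed UMIs; in mural cells the summed share is 0.527% in the control and 1.03% at 1 week, while in macrophages it is 0.793% and 0.736%.

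In fibroblasts the members did not move together: 16 of 38 were at least 1.5-fold higher at 1 week and 3 were at least 1.5-fold lower. Of the 14582 genes that reached 50 UMIs over both sums, 20.1% were that much higher and 18.2% that much lower. The median log2 ratio was 0.50 over the members and 0.02 over all genes. By role, all 3 collagen folding factors, 3 of 4 isomerases, 5 of 8 translocation genes and 4 of 5 transport genes were at least 1.5-fold higher. None of the 11 chaperones was, and 2 of them were at least 1.5-fold lower. The 7 stress regulators held 1 of each. The order control, 2 months, 1 week from low to high was seen in 22 of the 38 members.

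**Figure D2:**
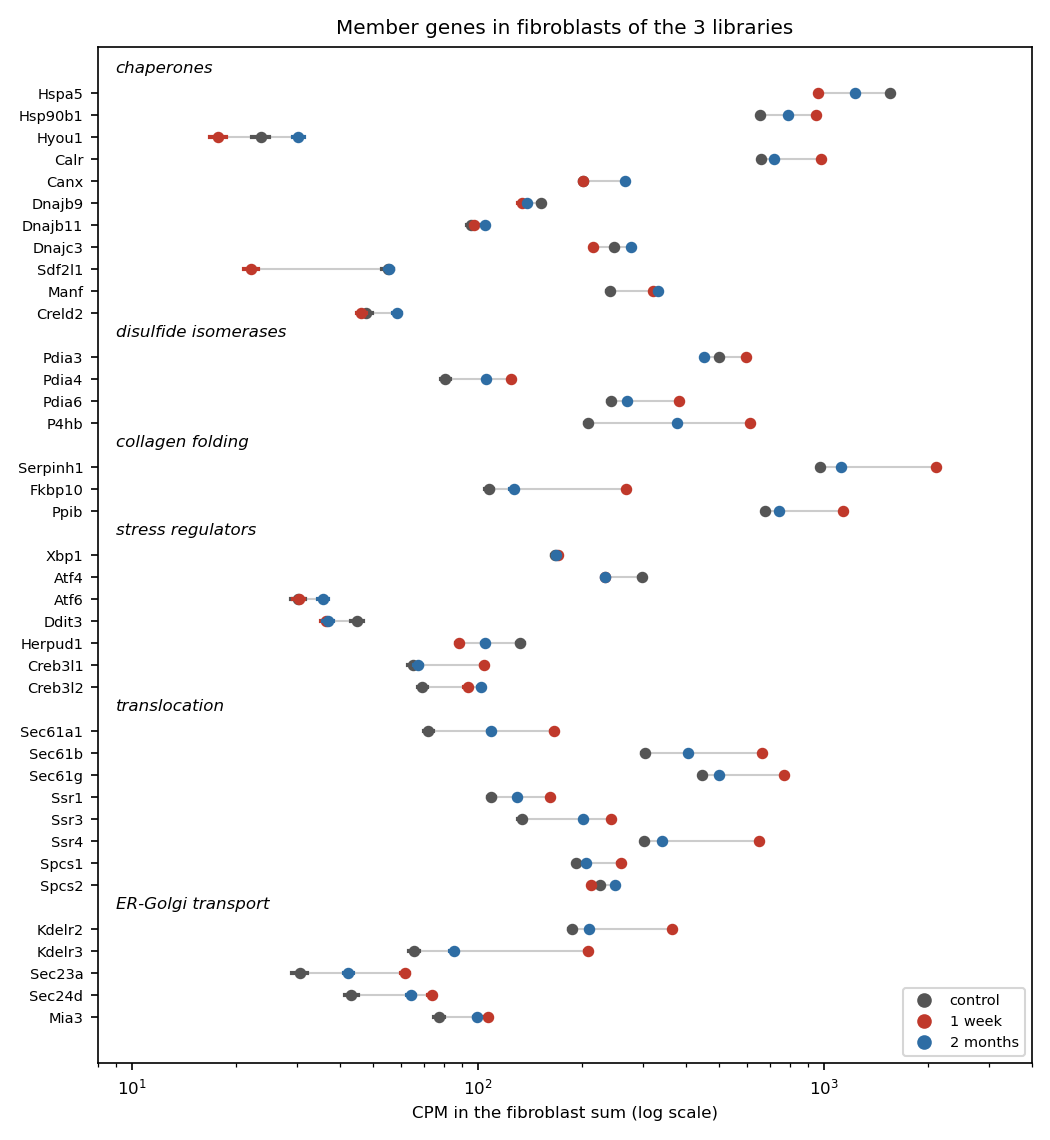
CPM of each member in the fibroblast sum of the control (grey), 1-week (red) and 2-month (blue) libraries on a log axis, grouped by role; short bars are 95% intervals for counting error, mostly smaller than the points. Red points lie to the right for collagen folding factors such as Serpinh1 (973, 2116 and 1124) and to the left for Hspa5 (1552, 964 and 1233) and Sdf2l1 (55, 22.2 and 55.4).

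All 3 collagen folding factors and 3 of 4 isomerases were at least 1.5-fold higher in 1-week fibroblasts, with median log2 ratios of 1.12 and 0.64, beside 0.83 for translocation and 0.96 for transport genes. Serpinh1, the collagen chaperone, was at 973, 2116 and 1124 CPM in the control, 1-week and 2-month libraries, 2.18-fold (2.15 to 2.2) of the control at 1 week. Fkbp10, a prolyl isomerase whose loss causes brittle bones, was at 108, 268 and 127, 2.48-fold (2.41 to 2.55) at 1 week. Both were high in the 1-week library, with the other libraries close to each other. Ppib, the ER cyclophilin, followed at 1.68-fold. P4hb was at 209, 612 and 378 CPM, 2.93-fold (2.87 to 2.99) of the control at 1 week and still 1.81-fold (1.77 to 1.85) at 2 months. It was the member with the highest ratio at 2 months. The other isomerases had smaller ratios at 1 week, 1.58 for Pdia6, 1.55 for Pdia4 and 1.2 for Pdia3, which pairs with calnexin and calreticulin on glycoproteins.

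Of the translocation genes, subunits of the Sec61 channel and of the translocon-associated complex were higher at 1 week. Sec61a1, which forms the channel itself, was at 72, 166 and 109 CPM in the same order of libraries, 2.3-fold (2.22 to 2.38) and 1.52-fold (1.46 to 1.57) of the control. The small subunits Sec61b and Sec61g were at 2.18-fold and 1.73-fold at 1 week. Among the translocon-associated subunits, Ssr4 was at 2.14-fold, Ssr3 at 1.82-fold and Ssr1 at 1.48-fold. The signal peptidase subunits stood apart from these, with Spcs1 at 1.34-fold and Spcs2 at 226, 213 and 249.9 CPM, 0.943-fold (0.922 to 0.965) at 1 week.

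Transport between the ER and the Golgi held the member with the highest ratio. Kdelr3, a KDEL receptor, was at 65.5 (control), 208 (1 week) and 85.2 CPM (2 months), 3.18-fold (3.07 to 3.3) of the control at 1 week and 1.3-fold (1.25 to 1.35) at 2 months. With each fibroblast thinned to 3000 UMIs, Kdelr3 was detected in 15.8% of control cells, 42% at 1 week and 21.1% at 2 months (50.7%, 86.9% and 65.1% without thinning; 121, 20 and 99 shallower cells left out). In macrophages the thinned shares were 1.73%, 5.93% and 2.3%. Kdelr2, its relative, was at 1.95-fold in fibroblasts at 1 week. The coat components Sec23a and Sec24d were at 2.01-fold and 1.7-fold. Mia3, which recruits procollagen to the coat, was at 77.3, 107 and 99.4 CPM, 1.38-fold (1.33 to 1.43) and 1.29-fold (1.24 to 1.33).

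Of the 11 chaperones, Hspa5 and Sdf2l1 were at least 1.5-fold lower at 1 week, a count near the 18.2% of all genes that were that much lower. Calr, Hsp90b1 and Manf were above the control by less than 1.5-fold, and the median log2 ratio was -0.05. Hspa5 was at 1552 CPM in control fibroblasts, 964 at 1 week and 1233 at 2 months, 0.621-fold (0.615 to 0.627) and 0.794-fold (0.787 to 0.802) of the control. Sdf2l1, an ER protein that works with Dnajb11, was at 55, 22.2 and 55.4, 0.403-fold (0.381 to 0.428) at 1 week and 1.01-fold (0.963 to 1.05) at 2 months. Its low value was therefore seen in the 1-week library alone. Hyou1, a nucleotide exchange factor for Hspa5, was at 0.755-fold at 1 week and 1.28-fold at 2 months. The Hspa5 cochaperones Dnajc3, Dnajb9 and Dnajb11 were at 0.871-fold, 0.882-fold and 1.02-fold at 1 week. The stress-induced proteins Creld2 and Manf were at 0.967-fold and 1.33-fold. Calr and Hsp90b1, the ER calcium-binding lectin and the ER Hsp90, were at 1.49-fold and 1.45-fold, just under the limit. Canx, the membrane-bound relative of Calr, was at 1 (0.98 to 1.03).

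The transcripts of the classical stress factors were level or lower at 1 week. Xbp1 was at 167, 171 and 168 CPM in the control, 1-week and 2-month fibroblasts, the 3 values lying within 1.02-fold of the control. Atf4 was at 298, 234 and 233, 0.786-fold (0.77 to 0.803) and 0.781-fold (0.766 to 0.797). Ddit3 was at 44.9, 36.5 and 36.9, 0.814-fold (0.772 to 0.859) and 0.822-fold (0.781 to 0.866). For Atf4 and Ddit3 the control was thus the high library and the operated libraries lay close to each other. Herpud1, which helps retire misfolded proteins from the ER, was at 0.666-fold and Atf6 at 1 (0.942 to 1.07). Of the ER-bound factors, Creb3l1 was at 64.9, 104 and 67.3, 1.6-fold (1.54 to 1.66) at 1 week and 1.04-fold (0.995 to 1.08) at 2 months. Creb3l2 was at 69.3, 93.6 and 102, 1.35-fold and 1.47-fold (1.42 to 1.53). Of the 7 regulators, Creb3l2 and Atf6 (30.3, 30.4 and 35.7) had their highest value at 2 months.

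Transcripts known for induction by tissue digestion were lower in both operated libraries. Hspa5 rose with them across control fibroblasts, and Sdf2l1 did not. Of 14 immediate early and heat shock genes known for induction by dissociation (such as Fos, Jun, Egr1 and Hspa1a), 14 were below the control in 1-week fibroblasts, 10 of them by at least 1.5-fold (median log2 ratio -0.82), and at 2 months 6 were at least 1.5-fold lower (median -0.44). Fibroblasts were therefore also described in 4 ranges of their share of UMIs on these 14 genes, with the same limits in each library; this split was chosen after the data had been seen. In the lowest range, Hspa5 was at 824, 839 and 934 CPM in the control, 1-week and 2-month libraries, a 1-week ratio of 1.02 (0.988 to 1.05). In the highest range it was at 2047, 1148 and 1775, a ratio of 0.561 (0.549 to 0.573). Hspa5 in the control library thus varied with the stress share, and its lower value at 1 week was absent among the cells of lowest stress share. That range held 12.5% of control and 34.1% of 1-week fibroblasts. The part of digestion in these differences was not tested. Atf4 had 1-week ratios from 1.1 in the lowest range to 0.782 in the highest, so it was not lower in each range. Ddit3 had ratios from 0.864 to 0.925 over the 4 ranges. Dnajb9 had ratios from 1.07 to 1.28, above the control in each range, though it was at 0.882-fold over all fibroblasts. Sdf2l1 was at 58.3, 62.4, 53.4 and 50.6 CPM from the lowest to the highest range of the control. Sdf2l1 and Herpud1 were lower at 1 week in each range, with ratios from 0.318 to 0.409 and from 0.645 to 0.715. Of the collagen folding and transport genes, only Serpinh1 and Kdelr3 were described by range, and both were higher at 1 week in each. In the lowest range Serpinh1 was at 955 in the control and 2302 at 1 week and Kdelr3 at 74.6 and 241 CPM. From the lowest to the highest range the ratio went from 2.41 to 1.61 for Serpinh1 and from 3.23 to 2.23 for Kdelr3.

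**Figure D3:**
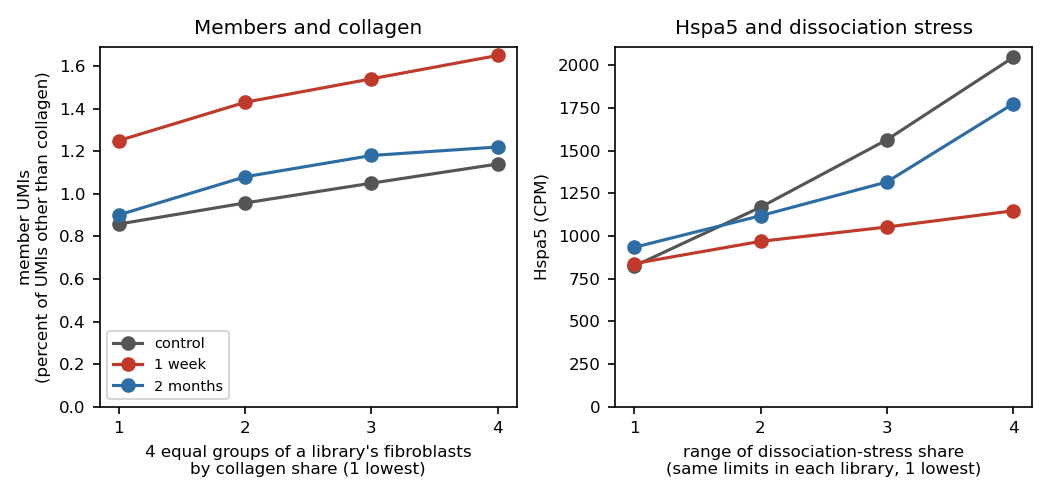
Left, UMIs of the members as a percent of all UMIs other than collagen, in 4 equal groups of each library's fibroblasts by collagen share; every line climbs, from 0.858% to 1.14% in the control and from 1.25% to 1.65% at 1 week. Right, Hspa5 in CPM in 4 ranges of the dissociation-stress share; the lines meet near 824 to 934 in the lowest range and part to 2047, 1148 and 1775 in the highest.

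Fibroblasts with a larger collagen share of UMIs also had a larger members' share in each library. Collagen chains made up 1.62% of fibroblast UMIs in the control, against 5.63% in the 1-week library and 1.99% in the 2-month library. With collagen UMIs taken out of the total, the members' share ran from 0.858% in the lowest of 4 equal groups of control fibroblasts ranked by collagen to 1.14% in the highest, from 1.25% to 1.65% at 1 week and from 0.901% to 1.22% at 2 months. The lowest group at 1 week, with 2.5% collagen and a members' share of 1.25%, lay above group 3 of the control, with 1.94% collagen and 1.05%. It also lay above group 4 of the control, which held more collagen (3.68%) and had a members' share of 1.14%. Serpinh1 went from 601 to 1518 CPM across the control groups and from 1564 to 2799 across the 1-week groups, and Creb3l1 from 47 to 103 and from 71.3 to 145. Hspa5 went from 1097 to 1964 across the control groups and from 1062 to 915 across the 1-week groups. The roles did not all climb. Across the control groups, collagen folding factors together went from 1321 to 2413 CPM and chaperones from 3269 to 4632. Translocation genes were at 1906, 1724, 1748 and 1849 from the lowest to the highest control group. The depth of the groups differed, with medians of 17674 UMIs per cell in the lowest and 12908 in the highest control group. Fibroblasts with Cthrc1, a gene of matrix-producing fibroblasts after injury, made up 15.7%, 94.2% and 48.8% of the 3 libraries. At 1 week the members' share was 1.4% in cells with Cthrc1 and 1.07% in the 275 cells without it, against 1.02% and 0.959% in the control. At 2 months it was 1.08% and 1.03%. Cells with Cthrc1 were the deeper ones in each library, with medians of 16984, 16745 and 19710 UMIs against 12634, 13105 and 13075, and the part of depth in these shares was not tested.

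Other genes of the pathway were also counted by role, and their counts did not repeat those of the members in each role. Of 97 such genes, 26 were at least 1.5-fold higher and 6 lower in 1-week fibroblasts (median log2 ratio 0.35), against 20.1% and 18.2% of all genes. Of the 96 tested at 2 months 10 were higher and 3 lower, against 11.7% and 9.61%, so the higher share was near that of all genes. The counts by role that follow are for 1 week, against the same 20.1% and 18.2%. Among 15 genes of N-glycosylation 6 were higher and none lower; Ostc and Stt3a, both of the oligosaccharyltransferase, were at 2.09-fold and 1.68-fold, and Stt3b and Magt1 at 1.04-fold and 0.919-fold. Among 15 other folding genes 5 were higher; Fkbp11, a prolyl isomerase of secretory cells, was at 27.2, 212 and 54.6 CPM, 7.79-fold (7.39 to 8.22), and Pdia5 at 2.93-fold, against 0.867-fold for Fkbp2 and 0.845-fold for Ero1lb. Among 15 translocation genes 4 were higher, with Ssr2 at 2.18-fold and Srp19 at 1.85-fold, against 0.894-fold for Sec11c and 0.97-fold for Srp14. Among 27 transport genes 9 were higher and none lower; the cargo receptors Surf4 and Lman1 were at 2.49-fold and 2.44-fold, Sec23b at 0.888-fold and Sec24c at 0.918-fold.

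Of 13 genes of ER-associated degradation, which disposes of misfolded protein, 1 was at least 1.5-fold higher and 3 lower in 1-week fibroblasts. The higher was Derl3, at 0.13 CPM in the control and 0.562 at 1 week, so low that its ratio of 4.34 had an interval of 1.95 to 11.4. Ube2j1 was at 1.3-fold, and Edem2 and Os9, which sort misfolded glycoproteins, were at 0.585-fold and 0.636-fold. Of 12 other stress response genes, 1 was higher and 3 lower. With 20.1% of all genes higher and 18.2% lower, the lower counts in these short lists were near the background. Ppp1r15a, which restores translation after stress, was at 605, 271 and 318 CPM, 0.447-fold (0.44 to 0.455) at 1 week, and Trib3, a target of Atf4 and Ddit3, at 0.478-fold. Chac1 was at 1.86-fold with 0.574 and 1.07 CPM, and Creb3 at 1.47-fold.

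At 2 months the members in fibroblasts lay nearer the control. In all, 3 members were at least 1.5-fold higher and none was lower, against 11.7% and 9.61% of 14620 genes, and the median log2 ratio was 0.19. They were P4hb, Sec61a1 and Ssr3 (1.51-fold). With ratios divided by the median ratio of all genes, 1 was. Between the operated libraries, 11 members were at least 1.5-fold lower at 2 months than at 1 week and 2 were higher, Sdf2l1 (2.5-fold) and Hyou1 (1.7-fold), against 15.5% and 16.3% of 14999 genes. The 11 included Kdelr3 at 0.409-fold, Fkbp10 at 0.473-fold, Ssr4 at 0.525-fold and Serpinh1 at 0.531-fold of the 1-week value. When the lining, progenitor-like and other fibroblasts were weighted to their shares in the control, 6 members were that much lower, so this count depends on the mix of fibroblasts.

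The lining fibroblasts with Clic5 showed smaller ratios for the same roles. Of 38 members, 10 were at least 1.5-fold higher and 1 lower at 1 week, against 12.8% and 15.9% of 12187 genes, and at 2 months 3 were higher and none lower, against 9.53% and 13% of 13189 genes. The median log2 ratios were 0.29 and 0.14. At 1 week the higher members were 4 of 8 translocation genes, 3 of 5 transport genes, 2 of 3 collagen folding factors and 1 of 4 isomerases, with none of the 11 chaperones or 7 stress regulators. P4hb was at 206, 530.2 and 373 CPM, 2.57-fold and 1.81-fold of the control. Kdelr3 was at 66.4, 136 and 86.5 (2.05-fold and 1.3-fold), and Ssr4 at 311, 594 and 364 (1.91-fold and 1.17-fold). At 2 months Creb3l2 (68.3, 80.8 and 107, 1.57-fold) and Sec61a1 (70.5, 133 and 107, 1.52-fold) followed P4hb. The lowest were Sdf2l1 at 62.2, 37.3 and 49.1 (0.599-fold and 0.79-fold), Hspa5 at 1319, 922 and 954 (0.699-fold and 0.723-fold), Herpud1 at 120.4, 87.7 and 91 (0.728-fold and 0.755-fold) and, at 2 months, Ddit3 at 41.7, 37.4 and 32.6 (0.781-fold). The lining markers other than Clic5 summed to 77337, 67717 and 86264 CPM in these cells. Of the 14 dissociation-stress genes, 10 were at least 1.5-fold lower at 1 week and 9 at 2 months, and their part in the lower members was not tested.

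The progenitor-like fibroblasts with Pi16 were closer to fibroblasts as a whole. Of 38 members, 13 were at least 1.5-fold higher and 3 lower at 1 week, against 16.8% and 14.1% of 10985 genes, and 3 were higher and none lower at 2 months, against 13.5% and 5.89% of 12139 genes. The median log2 ratios were 0.41 and 0.11. At 1 week the higher members were 5 of 8 translocation genes, 4 of 5 transport genes, 2 of 3 collagen folding factors, 1 of 4 isomerases and 1 of 11 chaperones (Calr, 1.51-fold). P4hb was at 218, 589 and 387 CPM, 2.7-fold and 1.77-fold of the control. Kdelr3 was at 72.1, 185 and 75.1 (2.57-fold and 1.04-fold) and Fkbp10 at 90.6, 226 and 112 (2.5-fold and 1.23-fold). Creb3l2 and Sec24d were at 1.54-fold and 1.51-fold at 2 months. The lowest were Sdf2l1 at 63.6, 30.1 and 57.9 (0.474-fold and 0.911-fold), Herpud1 at 150.4, 96.5 and 112 (0.642-fold and 0.742-fold), Hspa5 at 1707, 1113 and 1300.2 (0.652-fold and 0.762-fold) and, at 2 months, Ddit3 at 45.9, 37.7 and 37.6 (0.82-fold). The progenitor markers other than Pi16 summed to 1315, 535 and 1087 CPM, and 6 of the 14 dissociation-stress genes were at least 1.5-fold lower at 1 week and 4 at 2 months. The difference in size between the lining and progenitor-like cells was not tested.

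In endothelium, collagen folding and transport genes were higher and Hspa5 was lower at 1 week. Of 38 members, 14 were at least 1.5-fold higher and 2 lower, against 15.7% and 15.6% of 12751 genes, and at 2 months 2 were higher and 1 lower, against 11% and 6.98% of 12467 genes. The median log2 ratios were 0.31 and 0.07. The 14 higher members were 3 of 3 collagen folding factors, 4 of 5 transport genes, 4 of 8 translocation genes, 2 of 4 isomerases and 1 of 7 stress regulators. Of the 14 dissociation-stress genes, 12 were at least 1.5-fold lower at 1 week (median log2 ratio -1.16). Kdelr3 was at 20.6, 78.5 and 23.5 CPM, 3.81-fold (3.35 to 4.34) of the control at 1 week. Fkbp10 was at 43.6, 156 and 57.5 (3.57-fold), and P4hb at 146, 358 and 246 (2.45-fold and 1.69-fold). Creb3l2 was at 64.8, 106 and 105, 1.64-fold (1.51 to 1.77) and 1.62-fold (1.49 to 1.75), alike in both operated libraries, and Canx was at 1.34-fold at 2 months. The lowest were Hspa5 at 1494, 919.7 and 961 (0.616-fold and 0.643-fold), Ddit3 at 59.7, 38.5 and 41.6 (0.645-fold and 0.696-fold) and Dnajb9 at 208, 140.4 and 154 (0.675-fold and 0.739-fold). Some cells of this gate held fibroblast transcripts, the 6 markers summing to 5919, 11514 and 4737 CPM. In the 860, 1285 and 751 cells with no Pdgfra and at most 3 Dcn UMIs, a selection added after the data had been seen, the sums were 315, 877 and 289. There Kdelr3 was at 5.87, 30.9 and 5.94 (5.26-fold, 3.83 to 7.4), Fkbp10 at 19.8, 110.5 and 35.4 (5.57-fold), and Creb3l2 was at 1.84-fold and Hspa5 at 0.61-fold at 1 week. In these cells 13 members were at least 1.5-fold higher and 3 lower at 1 week, against 15.2% and 15.5% of all genes tested. Creb3l1, at 1.48-fold in the whole gate, was at 0.668-fold (0.48 to 0.936) in them.

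Mural cells held the highest counts and ratios of the 6 classes, and here chaperones were also higher. Of 38 members, 25 were at least 1.5-fold higher at 1 week and none was lower, against 22.9% and 22.1% of 11014 genes, and at 2 months 7 were higher and none lower, against 12.5% and 10.1% of 10374 genes. The median log2 ratios were 0.83 and 0.34. By role, 7 of 11 chaperones, 4 of 4 isomerases, 3 of 3 collagen folding factors, 1 of 7 stress regulators, 6 of 8 translocation genes and 4 of 5 transport genes were higher at 1 week. Kdelr3 was at 18.7, 122 and 39.1 CPM, 6.54-fold (5.36 to 8.07) of the control at 1 week and 2.09-fold at 2 months. Creb3l1 was at 11.1, 68.5 and 29.8, 6.18-fold (4.76 to 8.14) and 2.69-fold (1.99 to 3.66), with the 2-month library between the others. Fkbp10 was at 34.1, 160.5 and 57.7 (4.7-fold and 1.69-fold) and P4hb at 87.7, 354 and 180.4 (4.04-fold and 2.06-fold). Hspa5, lower in the other classes, was at 758, 931 and 852, 1.23-fold (1.18 to 1.28) and 1.12-fold (1.08 to 1.17). The lowest members at 1 week were Spcs2 at 190.4, 162 and 156 (0.85-fold and 0.819-fold), Herpud1 at 76.2, 78.6 and 67.7 (1.03-fold and 0.888-fold) and Creb3l2 at 65.3, 69 and 71.5 (1.06-fold and 1.09-fold). Kdelr2, at 92.4, 218 and 92.9, was back at the control level at 2 months (1.01-fold).

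Transcripts of fibroblasts were also more abundant in the mural gate at 1 week, and the median log2 ratio of the dissociation-stress genes was -0.20. The 6 mural markers outside the gate were lowest in that library, at 20324, 10606 and 16789 CPM, and their part in the members' ratios was not tested. The fibroblast markers other than Pdgfra, which the gate sets to 0, summed to 2074, 9603 and 2508 CPM, and collagen chains to 0.356%, 2.47% and 0.815% of UMIs. In the 604, 565 and 342 cells with at most 3 Dcn UMIs the markers, which include Col1a1 and Col1a2, summed to 540.4, 4519 and 1272. In these cells 23 members were at least 1.5-fold higher at 1 week and none lower, against 22.9% and 22.6% of all genes tested. Creb3l1 was at 5.06, 55.2 and 21.6 (10.9-fold, 7.22 to 17.3), Kdelr3 at 7.23-fold and Serpinh1 at 3.18-fold. Of the 14 dissociation-stress genes, 6 were at least 1.5-fold lower and 1 higher at 1 week, and 5 were higher at 2 months. At 2 months the count of members higher rested on the filter of cells: with a minimum of 1000 genes and a maximum of 5% mitochondrial UMIs it was 14 in place of 7.

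In macrophages Hspa5, Dnajb9, Atf4 and Herpud1 were at least 1.5-fold lower at 1 week, a count below the share of all genes. Of 38 members, 6 were at least 1.5-fold higher and 4 lower at 1 week, against 15% and 19.4% of 12201 genes, and 1 was higher and 4 lower at 2 months, against 10.7% and 9.15% of 11567 genes. The median log2 ratios were 0.12 and -0.01. The lower members at 1 week were 2 of 11 chaperones and 2 of 7 stress regulators, and among the other regulators Atf6 was at 1.23-fold and 1.15-fold, Creb3l1 at 1.15-fold and 0.951-fold and Creb3l2 at 1.01-fold at 1 week. Herpud1 was at 187, 71.4 and 110.4 CPM, 0.382-fold (0.358 to 0.407) and 0.591-fold (0.551 to 0.633) of the control. Dnajb9, which restrains Ire1, was at 197, 85.4 and 109.6 (0.434-fold and 0.557-fold), and Hspa5 at 1686, 803 and 939 (0.476-fold and 0.557-fold). Atf4 was at 429.6, 249.6 and 298 (0.581-fold and 0.693-fold). Ddit3 was at 63, 50.3 and 36.1 (0.799-fold and 0.573-fold), the 2-month library being the lowest. Xbp1 was at 165, 116 and 139 (0.702-fold and 0.841-fold). Of the 14 dissociation-stress genes, 11 were at least 1.5-fold lower at 1 week and 4 at 2 months, with 1 higher. P4hb was at 143, 276 and 230.0 (1.92-fold and 1.6-fold), and at 2 months Creb3l2 (22.6, 22.9 and 31.9), Ssr3 (123, 143 and 174) and Sec61a1 were each at 1.41-fold.

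Kdelr3 and the collagen folding factors were higher in the macrophage gate at 1 week, Ppib at only 1.18-fold, and so were fibroblast transcripts. Kdelr3 was at 10.9, 37.4 and 11.1 CPM (3.43-fold at 1 week), Fkbp10 at 18.1, 47 and 19.8 (2.61-fold) and Serpinh1 at 221, 362 and 232 (1.64-fold), while the fibroblast markers summed to 2998, 6370.4 and 3367. In the 851, 1648 and 660 macrophages with no Pdgfra and at most 3 Dcn UMIs these markers summed to 273, 981 and 358. There Serpinh1 was at 102, 81.3 and 91.2, 0.798-fold (0.731 to 0.873) at 1 week, the opposite direction to the whole gate. Kdelr3 was at 2.48, 7.45 and 3.41 (3.01-fold, 1.85 to 5.15, at 1 week) and Fkbp10 at 2.48, 11.5 and 2.89 (4.64-fold, 2.89 to 7.86), beside 3.43-fold and 2.61-fold in the whole gate, each resting on 19 control UMIs. Of 38 members in these cells, 4 were at least 1.5-fold higher and 6 lower at 1 week. Among all genes tested the shares were 15% and 20.4%, so both counts were below the background. P4hb (1.69-fold), Herpud1 (0.353-fold) and Hspa5 (0.464-fold) were near their values in the whole gate.

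**Figure D4:**
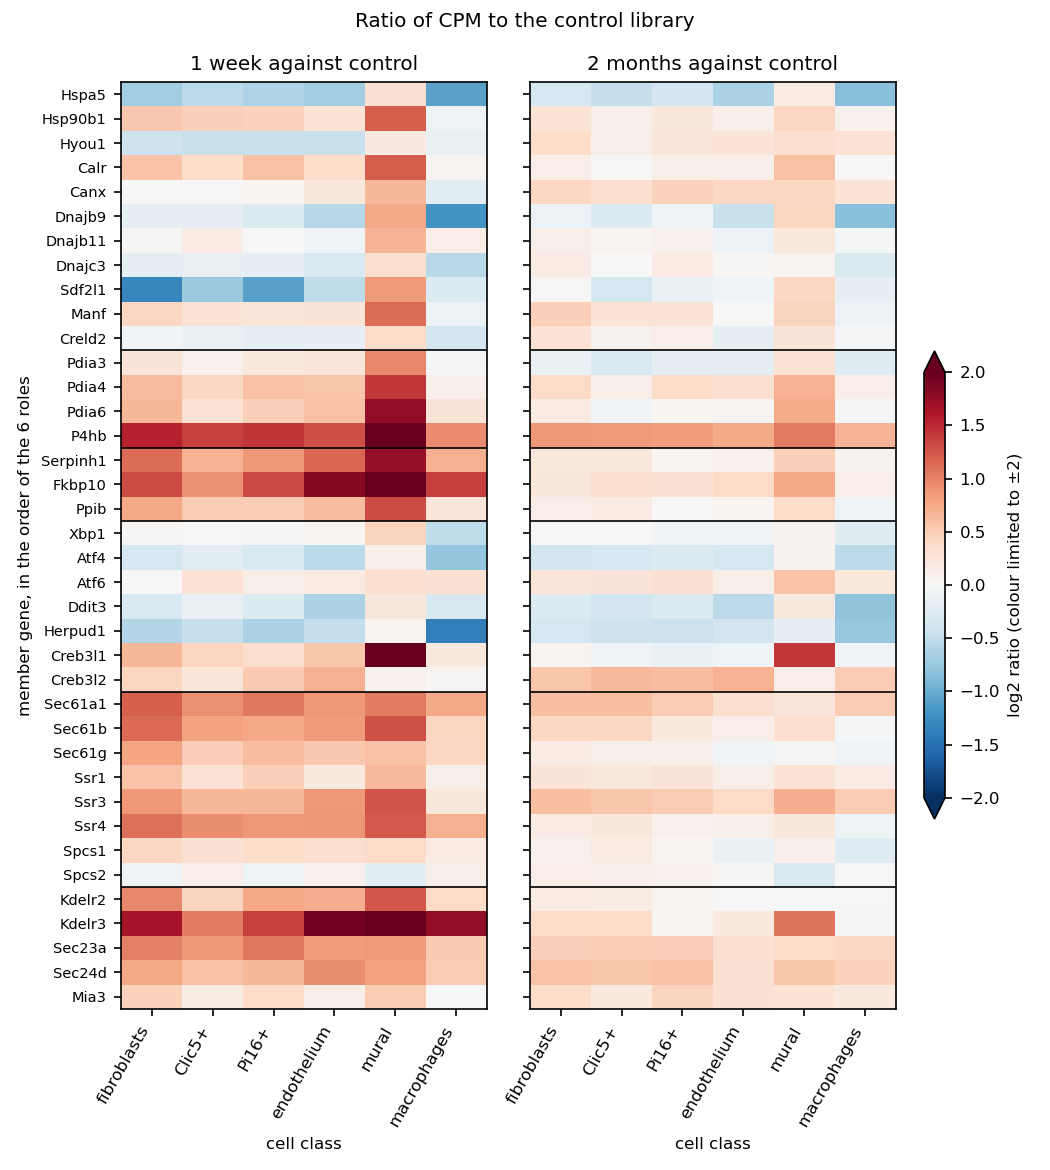
Log2 ratio of CPM to the control for each member (lines separate the 6 roles) in the 6 cell classes, at 1 week (left) and 2 months (right); red is higher and blue lower than the control, with colour limited to -2 and 2. At 1 week P4hb, Fkbp10 and Kdelr3 are red in each class, Hspa5 is blue in 5 of 6 classes and red in mural cells (1.23-fold), and Herpud1 is palest in mural cells (1.03-fold) and darkest in macrophages (0.382-fold).

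The promoter elements shown above can be set beside the fibroblast values. The 7 members with an ERSE had log2 ratios from -0.69 (Hspa5) to 0.66 (Pdia6) at 1 week, a median of 0.01, with 1 member at least 1.5-fold higher and 1 lower. The 24 members with a promoter in the table but no ERSE had a median of 0.52, with 11 higher and 2 lower. Of all genes tested at 1 week, 20.1% were that much higher and 18.2% that much lower, so the counts of the 7 were near the background. At 2 months the medians were 0.16 and 0.17. The 3 members with a UPRE, Kdelr3, Sec23a and Sec24d, were at 3.18-fold, 2.01-fold and 1.7-fold at 1 week, and the 2 with an ERSE-II, Herpud1 and Dnajb11, at 0.666-fold and 1.02-fold. The members with an ERSE thus did not share a direction, and whether a factor bound these sites was not measured.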

How the data were processed

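Per the labels, 10x Genomics single-cell 3′ libraries (v3) were made from 3 pools of sorted knee cells. The matrices that the authors deposited give raw counts of UMIs for each gene in each barcode. Cell Ranger 5.0.0 (control and 1 week) and 5.0.1 (2 months) wrote them per the file headers, whereas the submitters' processing notes name version 6.0.1 and the build mm10. The libraries held 9003, 13986 and 10799 barcodes with 96782789, 179561680 and 159333121 UMIs.

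Raw UMIs were summed over the cells of a class in a library and given as CPM of that sum. Ratios had exact 95% conditional binomial intervals, sums Poisson intervals and shares of cells Clopper-Pearson intervals. A gene was counted if both sums together held 50 UMIs or more and it had a ratio of at least 1.5 in either direction. Ddit3 had 2 entries in the files, the second without UMIs. Doublets (3.86%, 4.12% and 4.7% of cells by Scrublet in scanpy 1.11.5) were kept in the main values and removed in an alternative. The procedure was also run on simulated Poisson counts for fibroblasts at 1 week against the control, with 200 of 14366 genes changed 2-fold. It counted 100 of 100 raised and 100 of 100 lowered genes, and 1.04% of the unchanged ones. Both simulated sums came from the control profile without spread between cells, mice or libraries, so these figures cover counting error only. Software was Python 3.11.15, numpy 2.4.6, scipy 1.17.1, pandas 2.3.3 and matplotlib 3.10.9. The members and gene lists were chosen with earlier results of these data known. Full values are printed for the members with the 4 highest and 2 lowest ratios in fibroblasts at 1 week, the 2 most changed at 2 months, 7 fixed members, the 3 highest and lowest in each other class, and the 2 highest and lowest of each pathway list; others printed were chosen after their values were seen.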

Additional observations from a re-analysis of the deposited data

Results flagged for a closer look

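Some members were at least 1.5-fold higher at 1 week in 1 cell class and at least 1.5-fold lower in another. The differences were not tested, since each group was 1 library. Dnajb9 was at 1.69-fold of the control in mural cells and at 0.434-fold in macrophages. In the cells with no Pdgfra and at most 3 Dcn UMIs these ratios were 1.78 (1.58 to 2.02) and 0.392 (0.365 to 0.422). Sdf2l1 was at 1.81-fold in mural cells and at 0.403-fold in fibroblasts. Its mural value rested on 85 control UMIs, and with at most 3 Dcn UMIs in a cell it was 2.22 (1.65 to 3.03).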

How the results depend on the processing

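Counts of members at least 1.5-fold higher or lower were recomputed under 8 other settings and 1 added after the data had been seen, which kept endothelial, mural and macrophage cells with no Pdgfra and at most 3 Dcn UMIs. Most counts stayed within 1.5 times of the reported one. With ratios divided by the median ratio of all genes, members higher at 2 months numbered 1 in fibroblasts and 1 in Pi16-positive fibroblasts, and members lower at 2 months numbered 2 in endothelium. With each cell given equal weight, 2 were lower at 1 week in Clic5-positive fibroblasts and 2 at 2 months in endothelium. With fibroblasts weighted to the control mix, 6 were lower at 2 months than at 1 week. With stricter gates, 1 was lower at 1 week in endothelium. With the strict filter of cells, 14 were higher at 2 months in mural cells. With doublets removed, 2 were higher at 2 months in macrophages. In cells with no Pdgfra and at most 3 Dcn UMIs, 3 were lower at 2 months in endothelium, against 6.79% of all genes tested. In such macrophages 2 were higher at 2 months, against 9.75%, and 36 members had enough UMIs. The macrophage median log2 ratio changed sign at 1 week with doublets removed (0.00), and at 2 months with the strict filter (0.03) and without dividing cells (0.01). The cause of these changes was not tested. No paired analysis was possible because each group was 1 library. Depth limits low members: Hyou1 had 80 UMIs in control mural cells.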
